A study of Homo sapiens with 8 samples.

Results

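The cyclins, cyclin-dependent kinases (CDKs) and CDK inhibitors of the G1 phase were followed at the mRNA level in KYSE850, an established human line of esophageal squamous cell carcinoma (ESCC). Per the labels, 4 arrays held RNA of KYSE850 cells given a control siRNA and 4 held RNA of KYSE850 cells in which siRNA targeted KHSRP. KHSRP is an RNA-binding protein that acts in mRNA decay, splicing and microRNA maturation. The set consists of 10 genes of the 20249 with a probe on the array, namely CCND1, CCNE1, CDK4, CDK6, CDKN1A, CDKN1B, CDKN1C, CDKN2A, CDKN2B and CDKN2C. Its members were all probes whose RefSeq accession on the array belongs to one of these symbols, which gave 12 probes of 42405. The study blotted the proteins of CDKN1A (p21) and CDKN1B (p27) after KHSRP knockdown in ESCC cells and reported that both rose. It also measured their mRNAs and stated that these differed from the protein levels. The comparison here asked how the mRNAs of these genes and their partners stood on the arrays of KYSE850. Which of the study's KHSRP siRNAs was used for each array is not given in the labels, nor whether the arrays of a group came from separate cultures, so the p-values measure the spread between these arrays only.

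D-type cyclins with CDK4 or CDK6, and then cyclin E with CDK2, phosphorylate the retinoblastoma protein in G1, which frees E2F factors to switch on the genes of DNA replication. The CIP/KIP inhibitors p21, p27 and p57 bind several cyclin-CDK complexes, whereas the INK4 inhibitors p15, p16 and p18 bind CDK4 and CDK6 only. The amounts of p21, p27 and the G1 cyclins are set to a large part by translation and by breakdown of the protein through ubiquitin ligases, neither of which an mRNA array reads. In ESCC, gain of the CCND1 region and loss of the region that holds CDKN2A and CDKN2B are well known.

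A level is given here as the log2 signal of a probe relative to the 75th percentile of its own array, so that 0 is the signal at that percentile, and levels are compared only within a probe. A share of 45.1% to 49.4% of the probes was well above background on each array, no probe was saturated, and 18761 probes were tested. All 10 squamous epithelial markers examined were well above background on all 8 arrays, whereas of 10 markers of other cell types 3 (CD68, COL1A1 and ACTA2) were so on all 8 arrays and 4 on none. Replicates 1 and 2 of both groups shared a slide, as did replicates 3 and 4. In the deposited series matrix, the columns of KHSRP siRNA replicates 3 and 4 held the scanner values of each other. The scanner numbering is used here. The matrix numbering matters only where arrays are paired by number, and its paired result is given for the members wherever it changed a call. The labels number the arrays but do not say that they were paired. That pairing was chosen from correlations in these same data, so its intervals can be too narrow and its calls too many. KHSRP itself, at probe A_23_P16157, lay at 6.08 ± 0.24 (SD, n = 4) with control siRNA and at 2.71 ± 0.19 (SD, n = 4) with KHSRP siRNA, which left 9.66% of the control signal (limma adjusted p = 5.95e-05).

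In KHSRP siRNA cells the mRNA of CCNE1, which encodes cyclin E1, was 2.29-fold lower, and that of CDKN1C, which encodes the inhibitor p57, was 2.33-fold higher. CDKN1A and CDKN1B, which encode p21 and p27, differed by less than the spread between arrays. Of the 10 genes, 9 had a tested probe (11 probes), and 2 of these 9 were called at a limma adjusted p under 0.05, 1 in each direction. Over all tested probes 1039, or 5.54%, were called, 360 (1.92%) as higher and 679 (3.62%) as lower. With arrays scaled to their medians, 98 were called as higher and 472 as lower, and the same pair of members was called. The median log2 fold change was -0.03 over the 9 genes and 0.01 over all tested probes. The 4 arrays of each group did not overlap for 2 of the 9 genes, against 14.8% of all tested probes (6.09% higher and 8.69% lower with KHSRP siRNA). With the arrays paired by the matrix numbers, 5 of the 9 genes were called, and CCND1, CDK6 and CDKN2C joined the first pair. That pairing called 30.1% of all tested probes (14.8% higher and 15.3% lower with KHSRP siRNA).

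**Figure D1:**
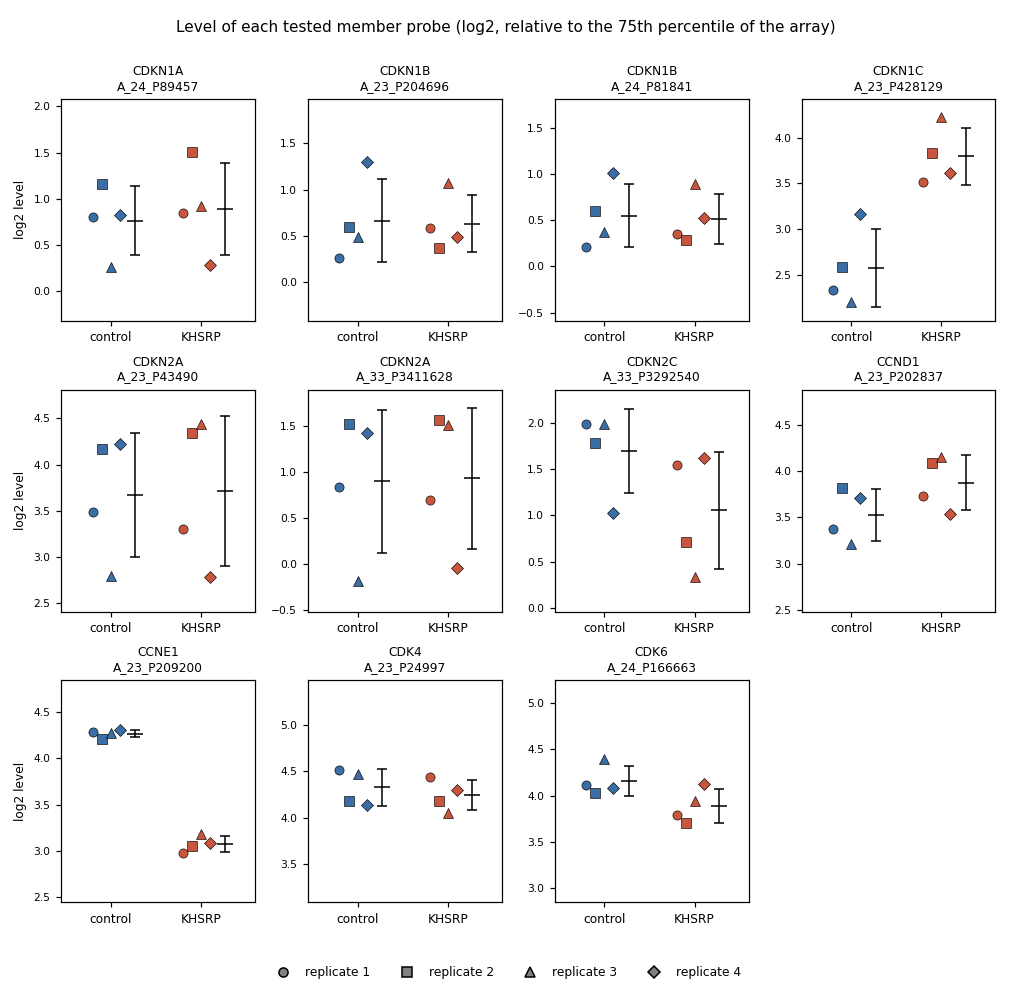
Log2 level of each tested member probe on each of the 8 arrays (points, with the shape giving the replicate number), for control siRNA in blue and KHSRP siRNA in red, with the mean and SD of 4 arrays as a black bar. The groups do not overlap at the probes of CDKN1C and CCNE1, and they overlap at the other 9 probes.

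Cyclin E1 is the partner of CDK2 at the entry into S phase. At the CCNE1 probe A_23_P209200 the 4 control arrays read 4.29, 4.21, 4.27 and 4.31, and the 4 KHSRP siRNA arrays read 2.98, 3.05, 3.19 and 3.09. The arrays of each group thus lay close together, and every KHSRP siRNA array lay more than 1 log2 unit below every control array. The log2 fold change was -1.19 (SE 0.10, limma adjusted p = 7.18e-04), which is 43.7% of control with a 95% interval from 37.4% to 51.1%. The difference was -1.23 on the first slide and -1.15 on the second. The arrays read bulk RNA, in which fewer cells of a kind and less mRNA per cell cannot be told apart. CCNE1 was called under all 21 alternative settings, with an adjusted p of at most 0.0372, and when any one of the 8 arrays was left out.

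The 250 bases before the RefSeq start of CCNE1 (GRCh38.p14, chr19:29811741-29811990, plus strand) are shown because this member fell furthest, beside those of CCNA2 (chr4:121823884-121824133, minus strand). CCNA2 encodes cyclin A2, the S phase partner of CDK2, and it fell furthest among the other cyclins. Capitals mark the GC box GGGCGG and the CCAAT box CCAAT on either strand.
CCNE1: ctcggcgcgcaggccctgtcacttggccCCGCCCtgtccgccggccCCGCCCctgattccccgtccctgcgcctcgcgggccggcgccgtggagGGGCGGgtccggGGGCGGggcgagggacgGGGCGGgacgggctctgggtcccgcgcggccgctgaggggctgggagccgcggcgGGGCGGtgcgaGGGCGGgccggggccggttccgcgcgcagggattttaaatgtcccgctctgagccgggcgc
CCNA2: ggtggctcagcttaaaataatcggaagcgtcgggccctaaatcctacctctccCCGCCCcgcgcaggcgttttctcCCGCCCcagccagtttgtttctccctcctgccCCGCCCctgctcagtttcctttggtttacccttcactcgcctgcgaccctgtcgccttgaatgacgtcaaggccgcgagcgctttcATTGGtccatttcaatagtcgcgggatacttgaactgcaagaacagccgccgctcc
The CCNE1 window is 81.2% G and C and holds 7 GC boxes and 0 CCAAT boxes. The CCNA2 window is 58.8% G and C and holds 3 GC boxes and 1 CCAAT box. Of all 35116 RefSeq windows of this length, 42.6% hold a GC box and 32.0% a CCAAT box on either strand. The letters TTTNNCGC, often given for E2F sites, are in neither window and in 5.92% of all windows. The windows held for members were those of CDKN1A, CDKN1B, CDKN2A, CDKN2B, CDKN2C, CCNE1, CDK4 and CDK6.

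Cyclin D1, the product of CCND1, activates CDK4 and CDK6 in answer to growth signals. Probe A_23_P202837 was printed as 10 spots and read 3.37, 3.82, 3.21 and 3.71 on the control arrays and 3.73, 4.09, 4.15 and 3.53 on the KHSRP siRNA arrays. KHSRP siRNA replicates 2 and 3 lay above all control arrays, and replicates 1 and 4 lay within the control range. CCND1 was higher by 0.35 on the log2 scale in the mean (SE 0.19, adjusted p = 0.386), with an interval from 93.7% to 173% of control. The SD between spots of one array had a median of 0.09, against SDs of 0.29 and 0.30 between the arrays of the groups. Paired by the matrix numbers, the level was higher in all 4 pairs, by 0.27 to 0.45, and the call was made (adjusted p = 0.0134, interval 114% to 142%).

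CDK4 and CDK6 are the kinases that D-type cyclins activate. The CDK4 probe A_23_P24997 read 4.52, 4.17, 4.47 and 4.14 with control siRNA and 4.44, 4.18, 4.05 and 4.30 with KHSRP siRNA. These groups overlapped, and the signal was 94.5% of control with an interval from 75.6% to 118% (adjusted p = 0.840). The CDK6 probe A_24_P166663 read 4.12, 4.03, 4.39 and 4.09 with control siRNA and 3.79, 3.70, 3.94 and 4.13 with KHSRP siRNA. KHSRP siRNA replicate 4 lay within the control range of CDK6 and the other 3 lay below it. The CDK6 signal was 83.2% of control, with an interval from 67.0% to 103% (adjusted p = 0.343). Paired by the matrix numbers, CDK6 was lower in all 4 pairs, by a log2 difference of -0.33 to -0.14, and was called (adjusted p = 0.0325, interval 74.2% to 93.2%).

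Among the CIP/KIP inhibitors, CDKN1A encodes p21, an inhibitor known for arresting cells after DNA damage. Its probe A_24_P89457 read 0.81, 1.16, 0.26 and 0.83 on the control arrays and 0.85, 1.50, 0.92 and 0.28 on the KHSRP siRNA arrays. In each group replicate 2 was the highest, and the lowest was replicate 3 with control siRNA and replicate 4 with KHSRP siRNA, so that the groups overlapped over nearly their whole range. The difference of the means was 0.12 (SE 0.28, adjusted p = 0.885), or 109% of control with an interval from 70.4% to 169%. It was 0.19 on the first slide and 0.06 on the second. Its sign turned without control siRNA replicate 3 (-0.04) and without KHSRP siRNA replicate 2 (-0.08). Paired by the matrix numbers, a pairing picked from these same data, the interval was 95.1% to 125% (limma adjusted p = 0.283). The interval without a block reached 169%, so a rise above 125% of control was not excluded.

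CDKN1B encodes p27, which restrains cyclin E-CDK2. Probe A_23_P204696, printed as 1 spot, read 0.26, 0.60, 0.49 and 1.30 with control siRNA and 0.58, 0.37, 1.07 and 0.49 with KHSRP siRNA. Probe A_24_P81841, printed as 10 spots, read 0.21, 0.60, 0.38 and 1.01 with control siRNA and 0.35, 0.28, 0.89 and 0.53 with KHSRP siRNA. At both probes control siRNA replicate 4 and KHSRP siRNA replicate 3 were the highest of their groups, and the groups overlapped. The signal was 97.7% of control at the first probe (66.2% to 144%, adjusted p = 0.969) and 97.4% at the second (70.3% to 135%, adjusted p = 0.956). Without control siRNA replicate 4 the log2 fold changes were 0.18 and 0.11, and with the matrix pairing the intervals ran from 80.6% to 118% and from 81.8% to 116%. The 10 spots of the second probe differed with a median SD of 0.09 within an array, against 0.35 and 0.27 between the arrays of the groups.

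CDKN1C encodes p57, the third CIP/KIP inhibitor, whose gene is imprinted. Its probe A_23_P428129 read 2.33, 2.59, 2.21 and 3.17 on the control arrays and 3.52, 3.83, 4.22 and 3.62 on the KHSRP siRNA arrays. All 4 KHSRP siRNA arrays lay above all 4 control arrays, the nearest being control siRNA replicate 4 and KHSRP siRNA replicate 1. The log2 fold change was 1.22 (SE 0.24, limma adjusted p = 0.0232), with an interval from 160% to 340% of control, and it was 1.21 on the first slide and 1.23 on the second. The call was lost on leaving out control siRNA replicate 1, 2 or 3 (adjusted p = 0.0794, 0.0676 and 0.0595) or KHSRP siRNA replicate 2 or 3 (0.0667 and 0.0561), with a log2 fold change of 1.08 to 1.23. Paired by the matrix numbers, the adjusted p was 0.00128 and the interval 203% to 267%.

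**Figure D2:**
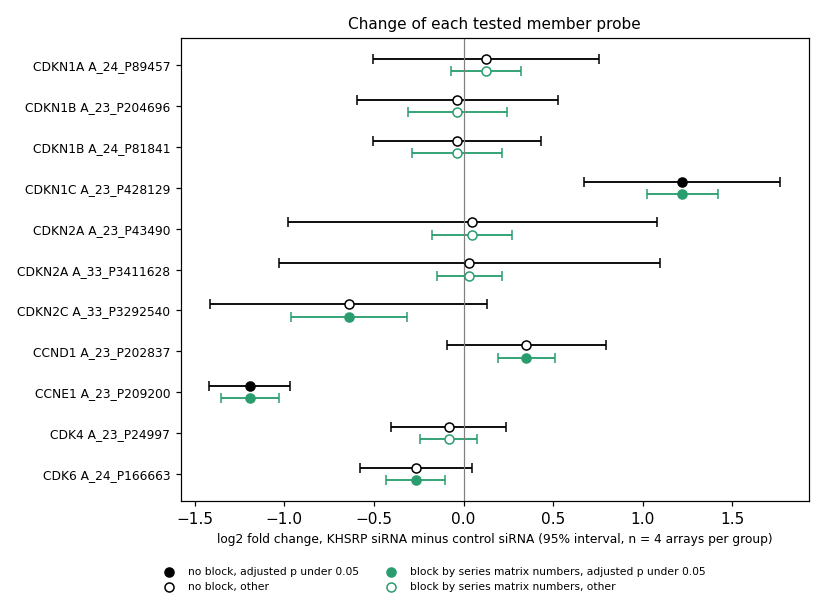
Log2 fold change of each tested member probe, KHSRP siRNA minus control siRNA, with its 95% interval, without a block (black) and with the arrays paired by the numbers of the series matrix (green); filled points have a limma adjusted p under 0.05. Without the block CDKN1C and CCNE1 are filled, and with it CDKN2C, CCND1 and CDK6 as well. The block changes the intervals and not the fold changes. The intervals of both CDKN1B probes and of the CDKN1A probe include 0 with and without it.

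Of the INK4 inhibitors, CDKN2A encodes p16 and, in another reading frame, ARF. The probe sequences were not at hand, so the probes are not assigned here to p16 or to ARF. Probe A_23_P43490 read 3.49, 4.17, 2.79 and 4.22 with control siRNA and 3.30, 4.34, 4.44 and 2.78 with KHSRP siRNA. Probe A_33_P3411628 read 0.83, 1.51, -0.18 and 1.42 with control siRNA and 0.69, 1.56, 1.51 and -0.04 with KHSRP siRNA. Within each group the arrays spread over more than 1.4 log2 units at both probes, which tracked each other over the 8 arrays (Pearson r = 0.983, a description), and the group means were nearly level. The log2 fold changes were 0.05 (adjusted p = 0.978) and 0.03 (adjusted p = 0.985), and with median scaling -0.03 and -0.04. Without a block their intervals, 50.7% to 211% and 49.0% to 214% of control, were the widest of the set. With the matrix pairing they ran from 88.6% to 121% and from 90.2% to 116%. CDKN2A mRNA was thus well above background on all 8 arrays.

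CDKN2B, the neighbour of CDKN2A that encodes p15, was read by A_23_P216812, which was well above background on 0 of 8 arrays. Its values lay between -5.65 and -4.71, below the dimmest level that passed as well above background on the same arrays (-4.55 to -3.74), so no fold change is given. Of 6 further genes around the locus on the short arm of chromosome 9, MTAP was tested, and 4 were well above background on no array. At its brightest probe MTAP had a log2 fold change of 0.43 (limma adjusted p = 0.466, and 0.00749 with the matrix pairing, which called 30.1% of all tested probes). Its probes A_24_P297888 (0.19) and A_24_P51118 (0.11) were not called with that pairing either (adjusted p = 0.121 and 0.399). CDKN2C encodes p18, and its probe A_33_P3292540 read 1.99, 1.79, 1.99 and 1.03 with control siRNA and 1.55, 0.72, 0.33 and 1.62 with KHSRP siRNA. The groups overlapped through control siRNA replicate 4, which lay below KHSRP siRNA replicates 1 and 4. The mean difference was -0.64 (SE 0.34, adjusted p = 0.358), or 64.1% of control with an interval from 37.5% to 110%. Paired by the matrix numbers, CDKN2C was lower in all 4 pairs, by a log2 difference of -1.07 to -0.37, and was called (adjusted p = 0.0179, interval 51.2% to 80.3%).

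**Figure D3:**
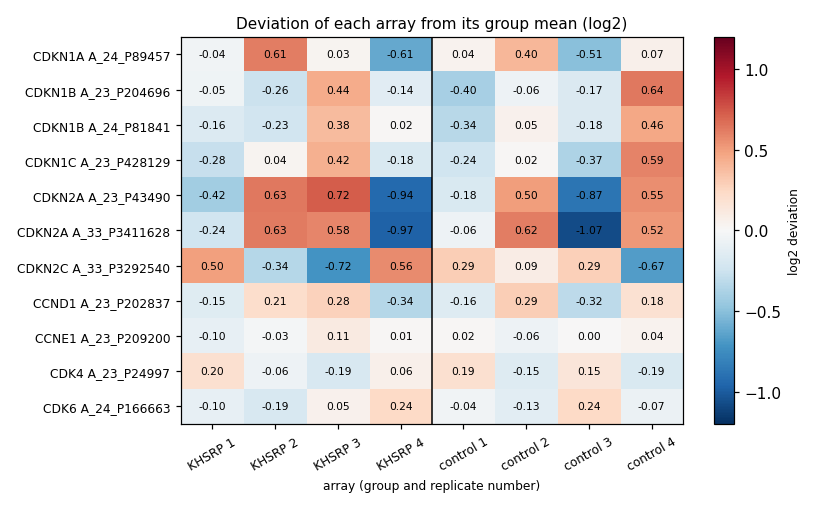
Deviation of each array (columns) from the mean of its own group on the log2 scale, for each tested member probe (rows); red is above the group mean and blue below. Control siRNA replicates 2 and 4 and KHSRP siRNA replicates 2 and 3 are above their group means for CDKN2A and CCND1 and, apart from replicate 2 of control siRNA, below them for CDKN2C, while the CCNE1 row lies between -0.10 and 0.11.

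Several members varied together within the groups. CDKN2A at both probes and CCND1 were above the group mean on control siRNA replicates 2 and 4 and on KHSRP siRNA replicates 2 and 3, and below it on the other 4 arrays. For CDKN2A the deviations reached -1.07 and 0.72, whereas for CCNE1 they stayed between -0.10 and 0.11. Over all tested probes, deviations from the group mean of same-numbered arrays correlated at 0.52, 0.43, 0.83 and 0.84 with the matrix numbers and at 0.52, 0.43, -0.67 and -0.64 with the scanner numbers. What set these shared deviations was not tested.

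The genes whose levels ran most like those of the CIP/KIP inhibitors over the 8 arrays, among tested probes with a symbol, are given as a description, since both conditions and the shared deviations enter these values. For CDKN1A they were SNHG5, UNC93B1 and EIF4EBP1 (Pearson r = 0.987, 0.983 and 0.982). For CDKN1B they were NBEAL1, TTC21A and BLVRA (r = 0.974, 0.968 and 0.966). For CDKN1C they were FBXO33, RNPEPL1 and TMEM8B (r = 0.998, 0.989 and 0.989).

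Other cyclins, CDKs and partners of G1 and S phase numbered 12 tested genes, of which 3 were called, all lower. Of all tested probes 5.54% were called, 3.62% as lower. CCNA2 read 2.57, 2.49, 2.73 and 2.35 with control siRNA and 0.39, 0.75, 0.88 and 0.37 with KHSRP siRNA, a 3.84-fold fall (log2 fold change -1.94, adjusted p = 6.68e-04) that was called without any one array. CDKN2D, which encodes the INK4 inhibitor p19, fell by 0.62 on the log2 scale (adjusted p = 0.0253), and CDC37, a co-chaperone that delivers CDK4 to HSP90, fell by 0.54 (adjusted p = 0.0365). The call of CDKN2D held in 2 of 8 fits that each left out 1 array, namely when replicate 4 of either group was dropped, and that of CDC37 in 0 of 8 (adjusted p up to 0.109). CDK2 and CCNE2, the kinase and the second cyclin E, had log2 fold changes of -0.06 and -0.18 (adjusted p = 0.902 and 0.775), and the median of the list was -0.15. With the matrix pairing 5 of the 12 were called, against 30.1% of all tested probes, CCNH (-0.52) and CDC25A (0.44) being added. With median scaling 1 was called, CCNA2.

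Of 13 RB family and E2F genes tested, 2 were called, both lower, against 5.54% of all tested probes called and 3.62% called as lower. E2F8, an atypical E2F that represses transcription, read -0.54, -0.32, -0.63 and -0.39 with control siRNA and -2.37, -2.26, -1.90 and -2.83 with KHSRP siRNA, a log2 fold change of -1.87 (adjusted p = 0.00178), which was -0.75 with normexp background correction (adjusted p = 0.00183). It was well above background on all 4 control arrays and on 3 of the 4 KHSRP siRNA arrays. It thus entered the test through the control arrays only, the group where it was higher, and such a filter favours a fall. Its place in the count of 2, and its call without any one array, are to be read with that limit. RB1, which encodes the retinoblastoma protein, read 1.83, 2.24, 1.47 and 2.48 with control siRNA and 0.45, 0.81, 1.34 and 0.36 with KHSRP siRNA. All KHSRP siRNA arrays of RB1 lay below all control arrays, with control siRNA replicate 3 and KHSRP siRNA replicate 3 close to each other. Its log2 fold change was -1.27 (limma adjusted p = 0.0364). The call held on leaving out replicate 3 of the control (0.0339) or KHSRP siRNA group (0.0276) and was lost without any of the other 6 arrays (0.0849 to 0.108). It was also lost with slide as a block (0.0540), the methods' t-test (0.0829), no filter on dim probes (0.115) and the block by the scanner numbers (0.166). The median of the list was -0.07. With the matrix pairing 7 of the 13 were called, against 30.1% of all tested probes, with RBL1 (0.42), RBL2 (0.29), TFDP2 (0.26), E2F1 (-0.29) and E2F3 (-0.65) added.

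**Figure D4:**
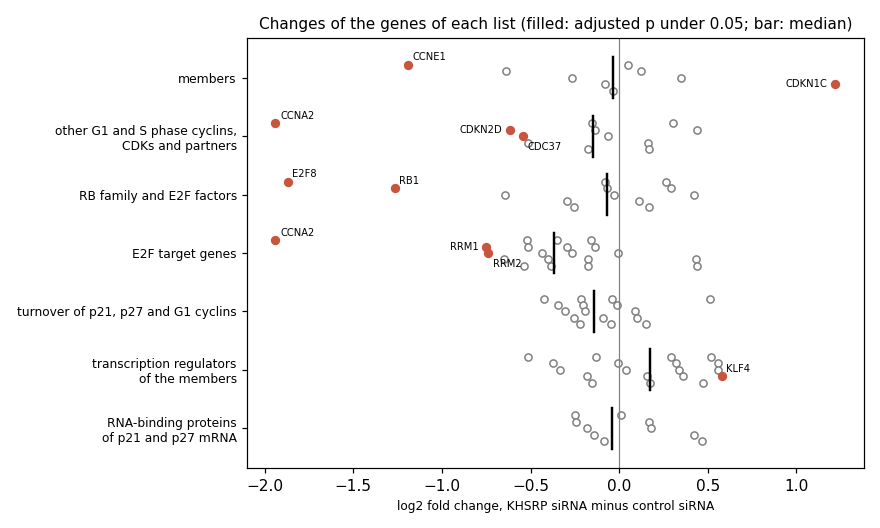
Log2 fold change, KHSRP siRNA minus control siRNA, of every tested gene of the member set and of 6 pathway lists, each gene read at its brightest tested probe; filled points have a limma adjusted p under 0.05 and the vertical bars are list medians. The E2F targets have the lowest median, -0.37, and CCNA2, listed in both lists of which it is a part, is the point furthest to the left.

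Of 20 E2F target genes tested, 18 had a log2 fold change below 0 (17 with quantile normalization or with the percentile of detected probes), and the median was -0.37 against 0.01 over all tested probes. Of these 20 genes, 3 were called, all lower, against 5.54% of all tested probes called and 3.62% called as lower. The 3 were CCNA2 and the ribonucleotide reductase subunits RRM1 (-0.75, adjusted p = 0.0334) and RRM2 (-0.74, adjusted p = 0.0193), which supply deoxyribonucleotides. RRM1 kept its call in 2 and RRM2 in 3 of the 8 fits without 1 array, with adjusted p up to 0.106 and 0.0649, and the count of the list was 1 on leaving out replicate 1 of either group or control siRNA replicate 2. The count was 6 with normexp and 2 with median scaling. The methods' t-test called RRM2 (adjusted p = 0.0281) and not RRM1 (0.0545). With the matrix pairing 14 of the 20 were called, 13 of them lower, against 30.1% and 15.3% of all tested probes, among which were the replication genes MCM3 (-0.54), MCM7 (-0.44), PCNA (-0.35), TYMS (-0.65) and POLA1 (-0.52). The exception was CDC25A, a phosphatase that activates CDK2, at 0.44.

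**Figure D5:**
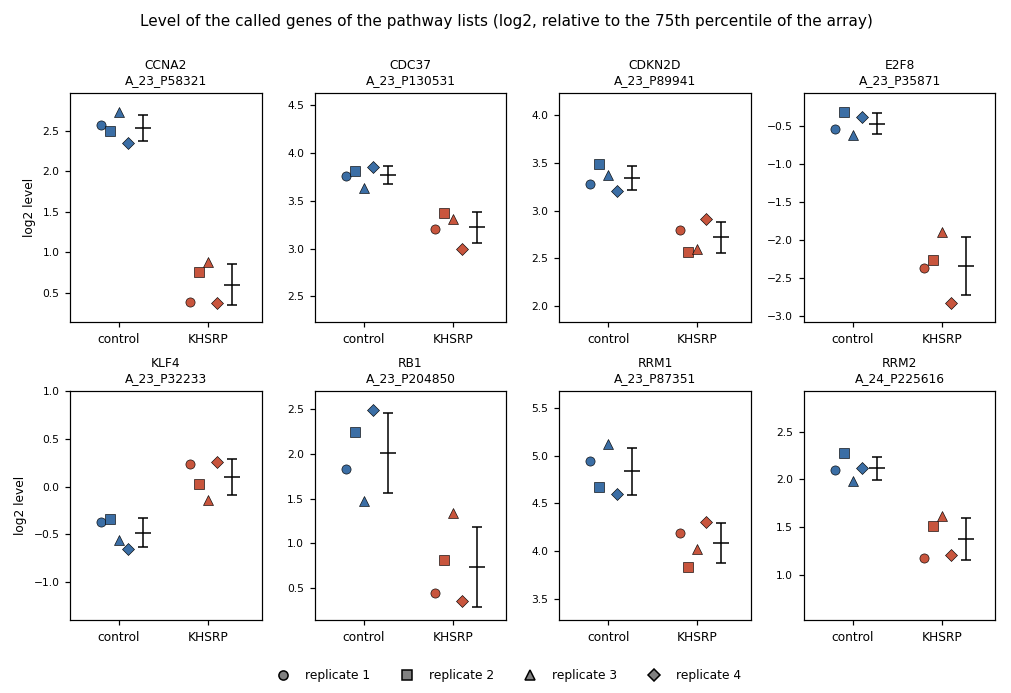
Log2 level on each of the 8 arrays of 8 genes of these pathway lists with a limma adjusted p under 0.05, drawn as in the plot of member levels. KLF4 is higher with KHSRP siRNA and the other 7 are lower. The groups do not overlap for any of the 8 genes, against 14.8% of all tested probes. The genes were drawn because they were called on the same arrays, so the lack of overlap adds no support.

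The genes that act on p21, p27 and the G1 cyclins from above were examined at the same threshold. Of 19 transcription regulators tested, 1 was called, against 5.54% of all tested probes. KLF4, a zinc-finger factor that binds the CDKN1A promoter, was called as higher (0.58, adjusted p = 0.0452). That call was kept without KHSRP siRNA replicate 3 and lost without any of the other 7 arrays (adjusted p up to 0.122), and it was lost as well with median scaling (0.250), normexp (0.126, log2 fold change 0.34), the intensity trend (0.0529) and the methods' test (0.0510). MYC, a repressor of CDK inhibitor genes, had a log2 fold change of 0.56 (adjusted p = 0.0728, and 0.00396 with the matrix pairing, under which 8 of the 19 were called, against 30.1% of all tested probes). The median of the list was 0.17.

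Of 16 genes for the turnover of p21, p27 and the G1 cyclins, 0 were called by limma, against 5.54% of all tested probes. An unadjusted p under 0.05 was found for 3 of them, against 19.6% of all tested probes. The largest changes were those of FBXO31, an F-box protein of cyclin D1 (0.51, adjusted p = 0.347), and CUL4B, a cullin scaffold (-0.42, adjusted p = 0.0828). SKP2, the F-box protein that marks p27 for breakdown, was at -0.09 (adjusted p = 0.675). With the matrix pairing 5 of the 16 were called, a share near the 30.1% of all tested probes. They were FBXO31 (adjusted p = 0.0287), CUL4B (0.0193), CUL3 (0.0294), DTL (0.0488) and CKS1B, the cofactor of SKP2 (0.0163). The median of the list was -0.14.

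Of 10 RNA-binding proteins known to bind p21 or p27 mRNA, 0 were called at their brightest probe and 2 had an unadjusted p under 0.05. The shares over all tested probes were 5.54% and 19.6%. The 2 genes were DND1 (0.47, adjusted p = 0.250), which shields p27 mRNA from microRNAs, and RBM38 (0.42, adjusted p = 0.0828), which stabilises p21 mRNA. With the matrix pairing these 2 of the 10 were called (adjusted p = 0.00897 and 0.00923), against 30.1% of all tested probes. HNRNPD, the decay factor AUF1, was at -0.24 at its brightest probe (adjusted p = 0.404) and at -0.53 at A_24_P123245 (adjusted p = 0.0299). Of 8 tested genes next to CCND1 on the long arm of chromosome 11, 0 were called at their brightest probe and 1 had an unadjusted p under 0.05. The shares over all tested probes were again 5.54% and 19.6%. TPCN2 was at 0.64 (adjusted p = 0.0861) and ANO1 at 0.34 (adjusted p = 0.624). With the matrix pairing these 2 of the 8 were called, against 30.1% of all tested probes. PPFIA1 was called at its second probe A_23_P75516 (-0.81, adjusted p = 0.0129) and not at its brightest (-0.22, adjusted p = 0.388).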

How the data were processed

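RNA of the 8 samples was hybridised to one-colour arrays. The authors extracted spot intensities with Agilent Feature Extraction (11.5.1.1 per the file headers, 12.6 per the submitters' processing notes). The deposited processed signal is a linear intensity, background-subtracted and not scaled between arrays. The authors also deposited a series matrix of log2 values, attributed to GeneSpring in the methods. Its array differences correlated at 1.00 with those of the scanner files, apart from the 2 exchanged columns, where r was -0.43. The labels and the methods name different kits for RNA extraction. Array precision is limited by the number of arrays.

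Here control and outlier spots were left out, log2 intensities were averaged per probe, and the 75th percentile of each array was subtracted. Probes entered the test if a share of 0.5 or more of their spots passed the scanner's well-above-background flag on all 4 arrays of a group. Probes were named through RefSeq accessions with the table of GRCh38.p14 (27241 of 42405 probes, 64.2%), from which no gene coordinates were taken because the array design is of another build. The tested probe with the highest mean stood for a gene. limma 3.58.1 in R 4.3.3 (lmFit, eBayes, two-sided, no block) was adjusted by Benjamini-Hochberg over all 18761 probes, with calls at 0.05 and intervals at 95%. The exact permutation test over 4 against 4 arrays allows no p under 0.0286. The fit was tested on simulated data with noise drawn independently for each probe and array. That simulation held no shared deviations, so it does not show how the fit behaves with those of these arrays. Other steps used Python 3.11.15.

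Members, lists and the rule for named genes (all members and KHSRP, the called genes of each list or otherwise the 2 largest changes, and 3 like-patterned genes for each CIP/KIP gene) were chosen with earlier results of these data known. Other list genes were named after their values were seen. CCNA2, CCNE2, CDC25A and E2F1 stand in 2 lists each. The genes of 1 further list (20 tested, 2 called, both higher, and 1 with median scaling) and 1 transcription regulator are not reported here.

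The matrix numbers were taken to pair the arrays because deviations of same-numbered arrays correlated above 0.1 in all 4 pairs. The scanner numbers were not taken. The labels do not say that arrays were paired. Because the choice used the tested probes themselves, the paired intervals can be too narrow and the paired calls too many. Alternatives covered scaling, normexp with an offset of 50 on the median brightness (the files hold no mean brightness), the filter, blocks, weights, the variance model, the methods' t-test on the same values, the probe that stands for a gene, and each array left out. The change in normexp and the list counts without 1 array, with the matrix pairing or with another scaling or background correction were added after seeing the data.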

Additional observations from a re-analysis of the deposited data

Results flagged for a closer look

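Among 48 groups of 4 arrays examined over the members, KHSRP and the called genes, 1 held an array far from the others. It was control siRNA replicate 2 at the dim KHSRP probe A_24_P134235, which read -1.86 where the nearest array read -1.10, a gap of 0.832 of the range of the group, just past Dixon's limit for 4 values. Chance alone sets about 1 in 20 such groups apart. The brighter KHSRP probe did not show it, and no member probe did.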

How the results depend on the processing

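Of all tested probes, 1039 were called as reported, 570 with median scaling, 319 without the filter on dim probes, 156 with the replicate block by the scanner numbers and 5644 with the block by the matrix numbers, and 491 to 741 without 1 array. Of the members, 2 genes (and 2 probes) were called as reported, 1 without the filter, with the methods' t-test or with the block by the scanner numbers (CCNE1 each time, with CDKN1C at an adjusted p of 0.0865, 0.0578 and 0.124), 5 with the block by the matrix numbers, and 1 to 2 without 1 array. The log2 fold change of CDKN1A was -0.0795 to 0.328 without 1 array, and its sign turned in 2 of these 8 fits. That of CDKN1B was -0.182 to 0.178, with the sign turned in 3 of 8 fits, and with array weights it was 0.0370. At the second CDKN1B probe, which turned in 3 of 8, it was -0.164 to 0.115. CDKN2A was at -0.0253 and -0.0413 with median scaling, and without 1 array its probes ranged from -0.243 to 0.361 and from -0.326 to 0.357, turning in 4 and 3 of 8 fits. With the block by the matrix numbers the list counts were 5 for other G1 and S phase genes, 7 for RB and E2F genes, 14 for E2F targets, 5 for turnover, 8 for transcription regulators, 2 for RNA-binding proteins, 1 around CDKN2A and 2 around CCND1. With the mean of all tested probes of a gene they were 2 for transcription regulators, 1 for RNA-binding proteins and 1 around CCND1. With median scaling they were 1 for other G1 genes, 2 for E2F targets and 0 for regulators, with normexp 6 for E2F targets and 0 for regulators, and with quantile normalization 2 for regulators. Without 1 array they ranged from 1 to 2, 1 to 2, 1 to 3 and 0 to 1 for the other G1 genes, RB and E2F genes, E2F targets and regulators, and were 0 for turnover, RNA-binding proteins and the genes around CDKN2A and CCND1. The cause of these shifts was not tested.

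With 4 arrays per group and SDs of up to 0.81 between arrays, the CDKN2A intervals without a block reach from 49.0% to 214% of control. They are narrower, 88.6% to 121% and 90.2% to 116%, only with the pairing that was chosen from these data. CDKN2B gave no measurement. For neither gene is a statement supported that the mRNA was level.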
